A study of Rattus norvegicus with 2 samples.

Results

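Wnt antagonists are secreted proteins that keep Wnt ligands from reaching or using their receptors. The 6 described here were Frzb, Sfrp2, Sfrp4, Sfrp5, Wif1 and Dkk3. They were chosen by symbol, and all 6 were found among the 18147 genes listed for both libraries, under the identifiers ENSRNOG00000007765 (Frzb), ENSRNOG00000009465 (Sfrp2), ENSRNOG00000054957 (Sfrp4), ENSRNOG00000014940 (Sfrp5), ENSRNOG00000004476 (Wif1) and ENSRNOG00000016343 (Dkk3). They were followed through chondrocytes, 4 groups of fibroblasts and 2 groups of lining cells. Single-cell RNA sequencing had been done on cartilage of Lewis rats, an inbred strain prone to inflammatory arthritis. The CIA (collagen-induced arthritis) library came from Lewis rats that had received type II collagen with complete Freund's adjuvant and were collected on day 14. The control library came from Lewis rats with no treatment. There was 1 library per group, and the number of animals in each is not given in the sources used here.

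Wnt ligands bind Frizzled receptors together with the co-receptors Lrp5 and Lrp6, and in the best known branch this keeps beta-catenin from being broken down. Frzb, Sfrp2, Sfrp4 and Sfrp5 are secreted Frizzled-related proteins, which carry a Wnt-binding domain like that of the receptors. Wif1 binds Wnt ligands through a domain of its own. Dkk3 is the divergent member of the Dickkopf family, whose other members block the co-receptors, and its part in Wnt signalling is less settled. In cartilage Frzb is best known as a product of chondrocytes that restrains Wnt signalling, and mice without it lose more cartilage in models of arthritis.

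The stretches upstream of the genes are shown first because 3 of these genes, Frzb, Wif1 and Sfrp5, had their highest control level among the stromal cells in chondrocytes, and Sfrp2, highest in fibroblasts, stands beside them. The RefSeq promoter table (build GRCr8) held 4 of the 6 genes; Sfrp4 and Dkk3 are named only. The windows are the 250 bases before each annotated start, at chr3:85772097-85772346 on the minus strand for Frzb, chr7:58433329-58433578 on the plus strand for Wif1, chr1:250960513-250960762 on the minus strand for Sfrp5 and chr2:171387286-171387535 on the plus strand for Sfrp2. Sequences run 5′ to 3′ towards the gene, and capitals mark matches on either strand to any of 4 motifs. These were ACAAAG and its variant ACAATG, searched as SOX cores, TCAAAG, searched as a core of the Wnt-responsive factors Tcf and Lef, and the TATA box, searched as TATAAA. The names are labels of the search. ACAAAG differs from TCAAAG in its first letter only and is not particular to SOX factors, as Tcf and Lef can bind it too.
Frzb: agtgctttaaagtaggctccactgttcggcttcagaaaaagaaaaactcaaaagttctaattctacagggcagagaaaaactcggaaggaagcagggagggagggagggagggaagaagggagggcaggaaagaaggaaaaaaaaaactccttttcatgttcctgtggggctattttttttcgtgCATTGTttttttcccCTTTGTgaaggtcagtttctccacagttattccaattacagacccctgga
Wif1: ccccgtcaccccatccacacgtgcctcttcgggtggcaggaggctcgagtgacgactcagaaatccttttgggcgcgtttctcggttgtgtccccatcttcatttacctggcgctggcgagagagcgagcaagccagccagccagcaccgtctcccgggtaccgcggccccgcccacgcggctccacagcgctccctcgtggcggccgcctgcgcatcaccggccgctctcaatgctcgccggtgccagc
Sfrp5: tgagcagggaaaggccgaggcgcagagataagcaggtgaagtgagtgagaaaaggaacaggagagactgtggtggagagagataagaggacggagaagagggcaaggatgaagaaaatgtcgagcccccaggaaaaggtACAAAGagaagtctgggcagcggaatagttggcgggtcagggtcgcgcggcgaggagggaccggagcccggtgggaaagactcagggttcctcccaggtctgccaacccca
Sfrp2: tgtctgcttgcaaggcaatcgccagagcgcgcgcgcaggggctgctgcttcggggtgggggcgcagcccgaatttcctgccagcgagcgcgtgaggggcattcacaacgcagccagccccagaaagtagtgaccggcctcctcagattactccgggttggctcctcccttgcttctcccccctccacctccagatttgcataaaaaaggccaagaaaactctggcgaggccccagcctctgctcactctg

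Frzb held 2 matches, an ACAATG that began 65 bases before the start and an ACAAAG at 50 bases, both on the opposite strand and not overlapping. Sfrp5 held 1 match, an ACAAAG on its own strand at 111 bases. Wif1 and Sfrp2 held 0 matches in these windows. Of the 33469 windows of the same length in the table, 16.3% held ACAAAG, 11.1% ACAATG, 13.9% TCAAAG, 12.9% TATAAA and 42.4% at least 1 of them. The GC content was 43.6% for Frzb, 68.0% for Wif1, 58.0% for Sfrp5 and 62.4% for Sfrp2, against a median of 51.2% over all windows. A match is a description of letters and not a bound site.

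After filtering, 8409 cells of the CIA library and 5349 of the control library remained, at medians of 10541 and 11873 unique molecular identifiers (UMIs, each marking 1 captured RNA molecule) per cell before filtering. Cells were sorted by gates, limits on summed marker UMIs that used none of the 6 genes. The stromal gates took 48.1% of CIA cells and 54.4% of control cells, and the chondrocyte gate alone 42 cells (0.499%) and 328 cells (6.13%), so most cells of both cartilage libraries were not chondrocytes by their markers. In at least 50% of the gate's cells 9 of 16 chondrocyte markers were detected in CIA and 12 of 16 in control. The libraries shared 52 cell barcodes. Levels are given as CPM, counts-per-million, the gene's UMIs scaled by all UMIs of the gate in that library, with exact 95% intervals that cover counting error only. Each group being a lone library, differences are between these libraries and carry no test. A gene is called higher or lower by a size rule, a ratio of at least 2-fold with its interval wholly beyond 1.5-fold, among genes for which both sums together held 100 UMIs or more, here termed measured.

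Free RNA can give UMIs in cells that do not make a gene, and no value here measures it directly. Endothelial cells and macrophages with monocytes, the largest gates outside the stroma, stand beside low levels. Col2a1, the main collagen of cartilage, had a median per cell of 0 CPM in the CIA fibroblast, lining, endothelial and macrophage gates, against medians of 109 to 153 CPM in the same control gates. Wif1 had 0.467 CPM in 546 CIA endothelial cells and 19.5 CPM in 671 control endothelial cells. The small neutrophil-lineage gate (103 CIA and 59 control cells) stood higher. It had 25.8 and 167 CPM of Frzb, 3.82 and 191 CPM of Wif1, 33.4 and 37.7 CPM of Sfrp2, 268 and 264 CPM of Sfrp4, and 55.4 and 48.5 CPM of Dkk3. In its control cells 69 of 124 Frzb UMIs and 49 of 142 Wif1 UMIs lay in 1 cell each, and the gate's summed level of Col2a1 was 10.5 CPM in CIA and 1396 CPM in control. Its summed Col1a1 was 10079 and 8800 CPM, against medians per cell of 1449 and 1400 CPM, so its sums can rest on few cells.

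By their highest control level among the stromal gates, the antagonists other than Dkk3 fell into a chondrocyte set and a fibroblast set. Among the 7 stromal gates Wif1, Frzb and Sfrp5 had their highest level in chondrocytes in both libraries, though in CIA Frzb overlapped Sectm1/Cbln1 fibroblasts and Sfrp5 rested on 2 UMIs. Sfrp4 and Sfrp2 were highest in fibroblasts marked by Sectm1 and Cbln1 in both libraries. Dkk3 was spread over all 7 gates.

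**Figure D1:**
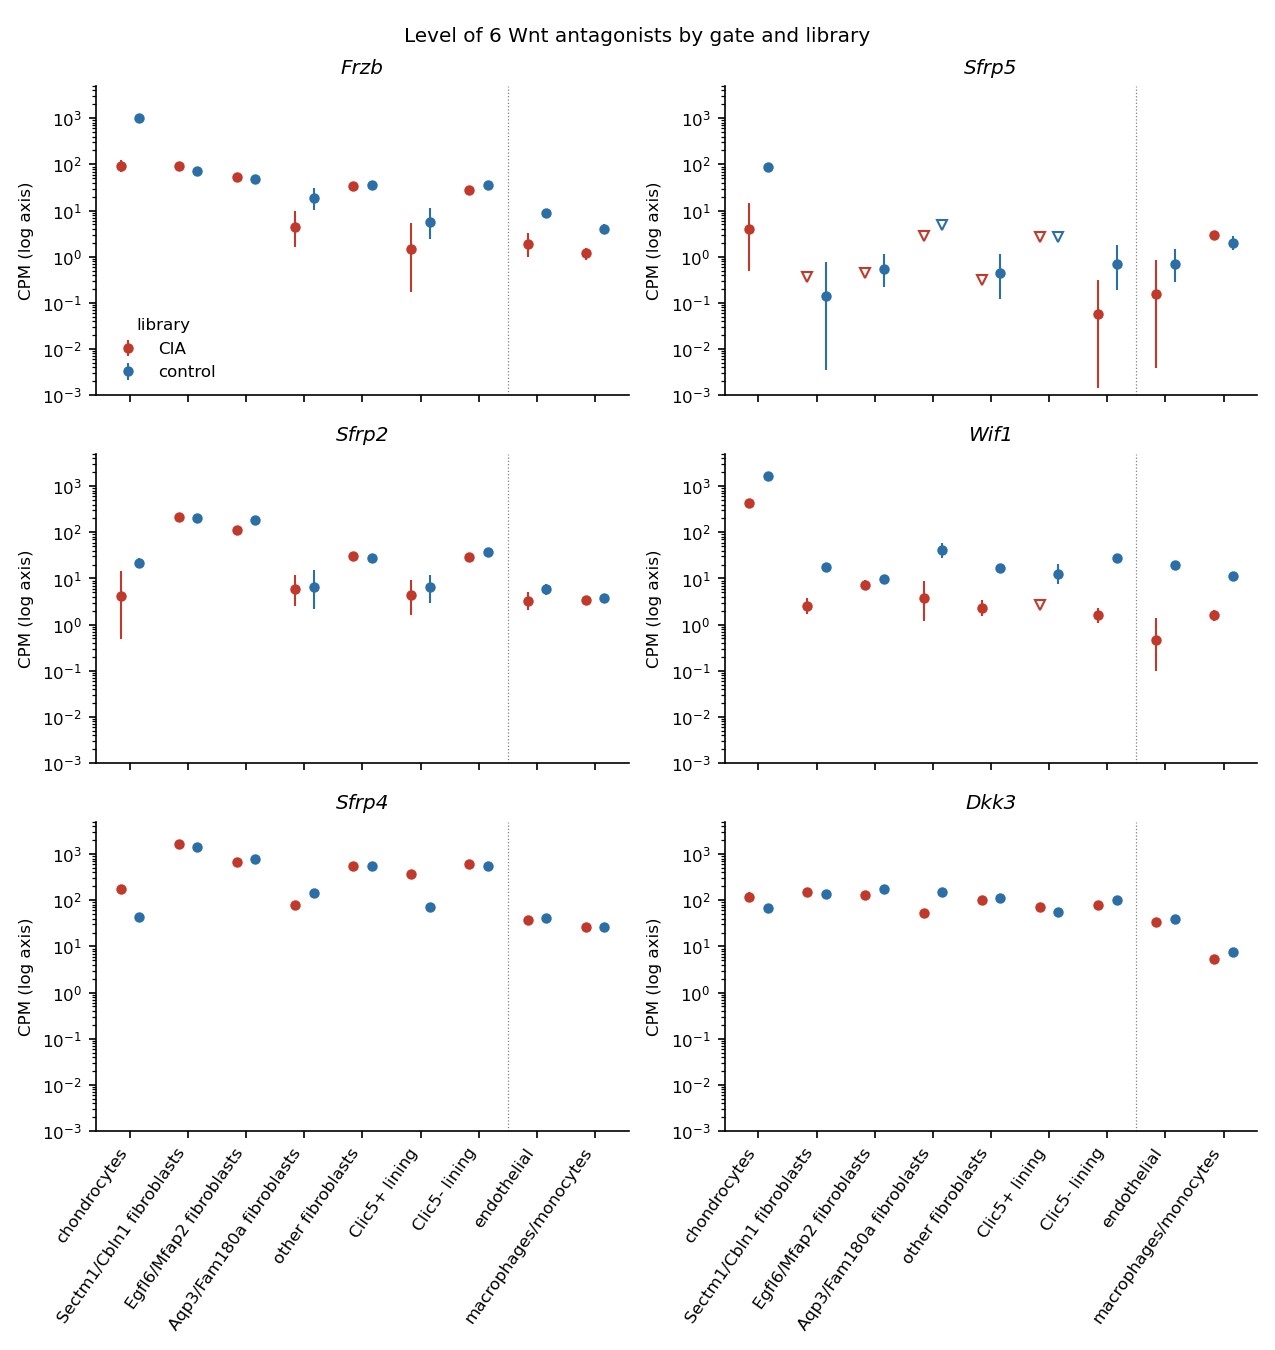
Level of each gene in 9 gates, in CPM on a log axis, for the CIA library (red, left of each pair) and the control library (blue). Bars are exact 95% counting intervals, open triangles mark the upper limit where 0 UMIs were seen, and the dotted line sets off endothelial cells and macrophages. Frzb in chondrocytes was at 93.7 CPM in CIA and 1031 CPM in control, while its levels in the fibroblast gates with most of its UMIs lay close together.

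Frzb, the secreted Frizzled-related protein of chondrocytes, had 93.7 CPM (68.6 to 125) in CIA chondrocytes and 1031 CPM (998 to 1065) in control chondrocytes. It was 11.0-fold lower in CIA (interval 8.23 to 15.1). A UMI of Frzb was found in 23.8% of CIA chondrocytes and 69.2% of control chondrocytes, or 14.3% and 59.8% once each cell was thinned to 4000 UMIs. The same thinned share was 0.916% in CIA endothelial cells and 3.13% in control endothelial cells. Of the 46 Frzb UMIs of the CIA gate, 26 lay in 1 cell, a cell with 380 UMIs of Col2a1 and 2257 of Col1a1. Without the top cell of each library the log2 ratio was -4.61, against -3.46 with it.

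Frzb in the fibroblast gates did not pass the size rule. In Sectm1/Cbln1 fibroblasts it had 91.9 CPM in CIA and 73.6 CPM in control, in Egfl6/Mfap2 fibroblasts 54.5 and 47.2 CPM, and in the other fibroblasts 34.2 and 36.1 CPM. The Sectm1/Cbln1 gate lay above endothelial cells of its library by 49.2-fold in CIA and 8.46-fold in control. All 3 control values lay below the 167 CPM of control neutrophil-lineage cells, but most Frzb UMIs of that small gate lay in 1 cell. In the order of its levels, CIA chondrocytes and CIA Sectm1/Cbln1 fibroblasts overlapped in their intervals, while control chondrocytes stood 14.0-fold above the next stromal gate. Clic5-positive lining cells were lowest in both libraries, at 1.45 CPM in CIA and 5.69 CPM in control, levels below those of endothelial cells (1.87 and 8.70 CPM). Macrophages with monocytes had 1.18 and 4.04 CPM, 3.43-fold lower in CIA (2.33 to 5.10), which passed the size rule. Endothelial Frzb was 4.65-fold lower in CIA (2.53 to 9.35), with too few UMIs to be measured. The part of free RNA in these differences was not tested.

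Wif1, which binds Wnt ligands directly, had 436 CPM (379 to 498) in CIA chondrocytes and 1660 CPM (1618 to 1702) in control chondrocytes. It was 3.81-fold lower in CIA (3.32 to 4.38). At 4000 UMIs per cell 35.7% of CIA and 84.8% of control chondrocytes held a Wif1 UMI, against 0.183% and 3.28% of endothelial cells. Chondrocytes stood 60.5-fold above the next stromal gate in CIA and 40.7-fold in control, where that gate, Aqp3/Fam180a fibroblasts, had 22 of its 31 UMIs in 1 cell. Control neutrophil-lineage cells, at 191 CPM, stood above that gate, though a large part of their Wif1 UMIs also lay in 1 cell. The smaller control gate of T and natural killer cells (24 cells) stood higher still, with 93 Wif1 UMIs among 226459. The 25 CIA cells of that gate held 0. How the 93 UMIs were spread over cells was not examined.

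Outside chondrocytes Wif1 was also called lower in CIA in 3 gates. It had 2.54 CPM in CIA and 17.5 CPM in control Sectm1/Cbln1 fibroblasts, 2.31 and 16.9 CPM in the other fibroblasts, and 1.62 and 27.1 CPM in Clic5-negative lining cells. Endothelial cells (0.467 and 19.5 CPM) and macrophages with monocytes (1.58 and 11.2 CPM) moved the same way, and the part of free RNA in these differences was not tested. Against endothelial cells of the same library, control Wif1 was 0.899 times as high in Sectm1/Cbln1 fibroblasts (0.713 to 1.13), 0.868 times in the other fibroblasts (0.698 to 1.08) and 1.39 times in Clic5-negative lining cells (1.12 to 1.73). In CIA the same 3 gates stood 5.43, 4.94 and 3.47 times above endothelial cells, whose Wif1 rested on 3 UMIs. In Egfl6/Mfap2 fibroblasts Wif1 had 7.21 CPM in CIA and 9.51 CPM in control, which was 15.4 times the endothelial level in CIA (5.04 to 76.9) and 0.488 times that in control (0.386 to 0.615). Per 1000 UMIs of Col2a1, control chondrocytes held 79.8 Wif1 UMIs, Egfl6/Mfap2 fibroblasts 77.3, endothelial cells 72.8 and macrophages with monocytes 87.0. The 3 gates with a call held more in control, at 135 in Sectm1/Cbln1 fibroblasts, 123 in the other fibroblasts and 197 in Clic5-negative lining cells, so Wif1 and Col2a1 did not keep 1 ratio in every control gate.

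Sfrp5, a Frizzled-related protein also known from fat tissue, was the rarest of the 6. It had 4.07 CPM (0.493 to 14.7) in CIA chondrocytes and 87.2 CPM (77.8 to 97.4) in control chondrocytes. That is 2 UMIs in 1 CIA cell and 315 UMIs in 87 control cells, a level 21.4-fold lower in CIA with the wide counting interval 5.88 to 177. The CIA level lay under the floor of 3 counts, 6.11 CPM in this gate, and its interval held the 2.89 CPM of CIA macrophages with monocytes. In the fibroblast gates of the CIA library 0 UMIs were seen. In those of the control library the highest level was 0.546 CPM, against 0.700 CPM in control endothelial cells.

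Of the 6 genes, 5 had enough UMIs to be measured in chondrocytes: 3 were called lower in CIA (Frzb, Wif1 and Sfrp5) and 1 higher (Sfrp4). Among all 3955 genes measured in the gate the size rule called 11.4%, made up of 5.44% lower and 5.94% higher. The median log2 ratio was -1.93 over the 5 antagonists and 0.287 over all measured genes. Sfrp4 had 173 CPM in CIA chondrocytes and 43.5 CPM in control chondrocytes, 3.98-fold higher (3.02 to 5.22), but 70 of its 85 CIA UMIs lay in 1 cell. Without the top cell of each library the log2 ratio of Sfrp4 was -0.28 (-1.16 to 0.49) and the call was lost. Dkk3 had 118 and 68.9 CPM, 1.71-fold higher (1.27 to 2.29), which missed the rule. Sfrp2 was not measured, with 2 UMIs in CIA and 80 in control, of which 49 lay in 1 cell.

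**Figure D2:**
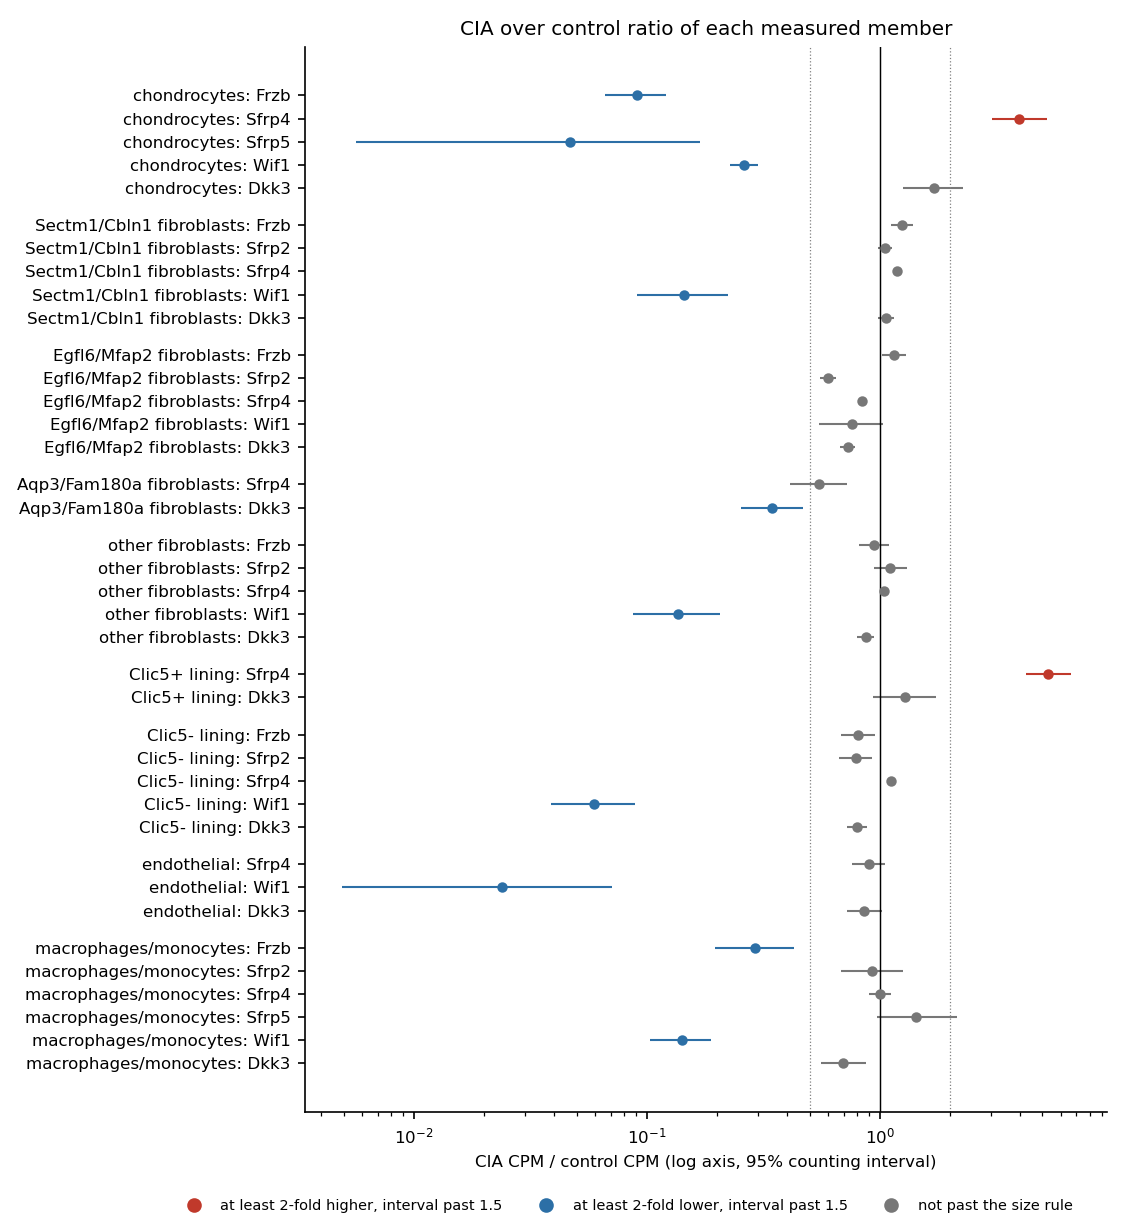
Ratio of CIA to control CPM on a log axis for each gene that was measured in a gate, with exact 95% counting intervals. Blue and red points passed the size rule as lower and higher, grey points did not, and dotted lines mark 2-fold. Wif1 lay to the left in most gates, endothelial cells and macrophages included. Frzb was called lower in chondrocytes and in macrophages with monocytes, and not in the 4 other stromal gates where it was measured. Sfrp5 was measured in no stromal gate but chondrocytes.

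The chondrocyte gate did not hold the same cells in both libraries. Chad, a leucine-rich matrix protein of cartilage, reached 1000 CPM in 10 of 42 CIA cells and 262 of 328 control cells. Of the CIA cells 22 lay in the Col2a1 and Chad cluster 22 and 17 in cluster 3, which Bglap, Chi3l1 and Fmod led, and of the control cells 302 lay in cluster 22 and 20 in cluster 3. The gate was therefore described by Chad level, at a limit set after the values had been seen.

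In Chad-high cells Wif1 differed little, and Frzb differed as much as in the gate as a whole. Wif1 had 2076 CPM (1785 to 2401) in the 10 CIA cells and 2330 CPM (2270 to 2392) in the 262 control cells, a ratio of 0.891 (0.764 to 1.03). Frzb had 103 CPM (46.9 to 195) and 1410 CPM (1363 to 1458), 13.7-fold lower in CIA (7.23 to 30.1). Sfrp5 had 22.8 and 118 CPM, 5.18-fold lower with an interval of 1.42 to 43.0 that did not pass the rule. Frzb was the 1 antagonist called among the 5 measured in Chad-high cells, where the rule called 5.84% of 2604 genes (2.76% higher, 3.07% lower). That call rests on 9 Frzb UMIs in 10 CIA cells, too few for more than a description of values. Wif1 was found in 9 of the 10 CIA cells, with 48, 27, 14, 8, 6, 10, 45, 10, 0 and 14 UMIs in order of falling Chad, and Frzb in 5 of them, with at most 3 UMIs in any. The CIA cells are few and come from 1 library, and their spread over animals is unknown.

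Chad-low cells of the gate showed lower Wif1 and Frzb in CIA. Wif1 had 79.3 CPM in 32 CIA cells and 317 CPM in 66 control cells, 3.99-fold lower (2.78 to 5.92). Frzb had 91.7 and 273 CPM, 2.97-fold lower (2.11 to 4.30). Dkk3 had 131 and 59.9 CPM, 2.20-fold higher (1.51 to 3.17). Sfrp4 had 201 and 44.9 CPM, with 86.4% of the CIA UMIs in 1 cell. The rule called 9.99% of the 2023 genes measured in Chad-low cells (3.86% higher, 6.13% lower). Collagen I also differed there, with a median Col1a1 level per cell of 26103 CPM in CIA and 58508 CPM in control. A limit on osteoblast-lineage markers was passed by 8 of the 32 CIA and 40 of the 66 control cells. Among Chad-low cells with at least 10000 CPM of Col1a1 (21 CIA and 49 control cells), Wif1 was 1.80-fold lower in CIA (1.15 to 2.92) and Frzb 1.90-fold lower (1.34 to 2.76), and neither passed the rule. Dkk3 in those cells had 205 and 63.7 CPM, 3.22-fold higher (2.17 to 4.77). The remaining Chad-low cells, below that Col1a1 limit, were 11 in CIA and 17 in control. There Wif1 had 62.2 CPM (28.4 to 118) in CIA and 774 CPM (679 to 879) in control. Frzb had 0 UMIs in CIA, with an upper limit of 25.5 CPM, and 276 CPM in control, with 42 of its 85 UMIs in 1 cell. Dkk3 had 0 UMIs in CIA and 48.8 CPM (27.3 to 80.5) in control, so its higher CIA level was found in the Col1a1-high cells and not in these.

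Within control Chad-high cells Frzb and Wif1 separated along Prg4, which codes for lubricin, a lubricant made at the cartilage surface. Frzb had 140 CPM (110 to 175) in the 66 cells with at least 10000 CPM of Prg4 and 1786 CPM (1726 to 1848) in the 196 cells below that, 12.8-fold lower in the Prg4-high cells (10.2 to 16.2). Wif1 had 2440 and 2298 CPM, a ratio of 1.06 (0.998 to 1.13), and Sfrp5 99.9 and 124 CPM, a ratio of 0.808 (0.591 to 1.09). Col2a1 was 1.52-fold and Chad 1.40-fold lower in the Prg4-high cells. A limit on osteoblast-lineage markers was passed by 1 of the 66 Prg4-high and 45 of the 196 Prg4-low cells. Within 1.5 times the Prg4 limit lay 17 of the Prg4-high and 19 of the Prg4-low cells. All 10 CIA Chad-high cells were Prg4-low. Set beside the 196 Prg4-low control cells, Frzb was 17.4-fold lower in CIA (9.15 to 38.1). Wif1 had a ratio of 0.904 (0.775 to 1.05), where the rule called 7.4% of 2067 genes (3.48% higher, 3.92% lower). With the same 10 cells on the CIA side, these values too are a description only.

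**Figure D3:**
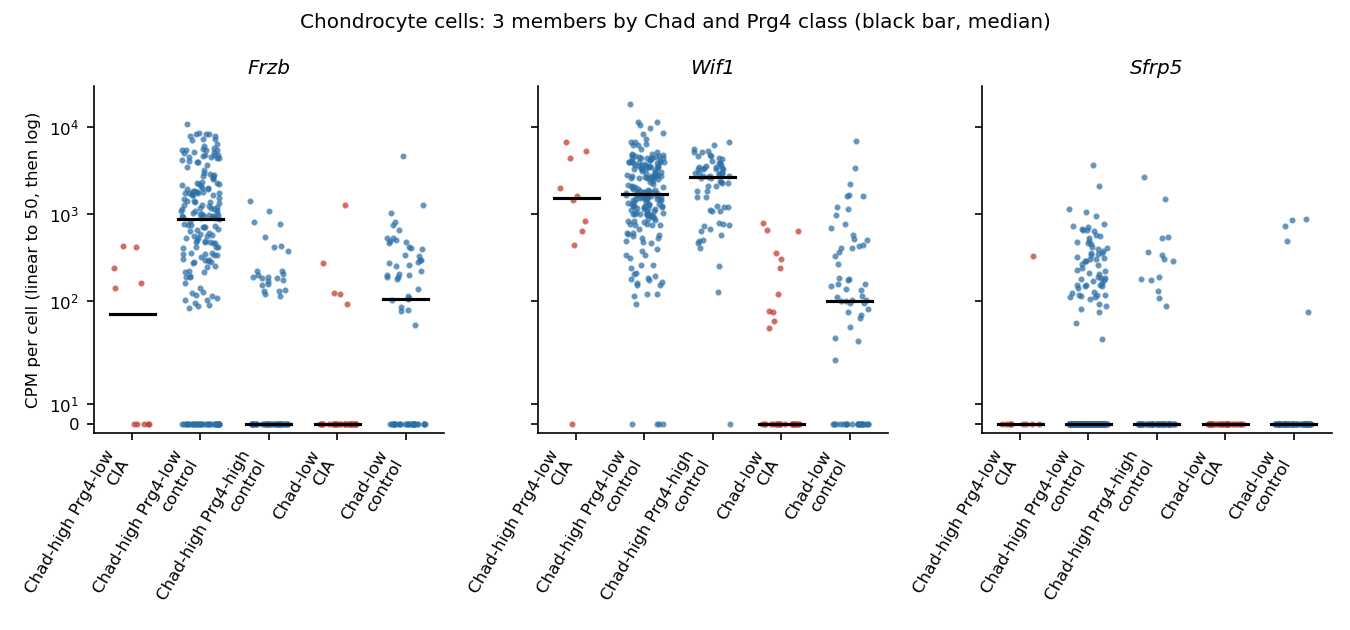
CPM of Frzb, Wif1 and Sfrp5 in single chondrocytes, with 1 point per cell, CIA in red and control in blue, on an axis that is linear to 50 and logarithmic above. Black bars are medians. Frzb was low in the CIA cells and in the Prg4-high control cells, while Wif1 was high in all 3 Chad-high groups.

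Sfrp4, a Frizzled-related protein of fibroblasts and bone-forming cells, was the antagonist of the Sectm1/Cbln1 fibroblasts. It had 1655 CPM (1630 to 1680) in 874 CIA cells and 1399 CPM (1372 to 1427) in 448 control cells, a ratio of 1.18 (1.15 to 1.21). At 4000 UMIs per cell 91.8% of CIA and 86.8% of control cells of this gate held a UMI of it, against 11.2% and 9.84% of endothelial cells. Egfl6/Mfap2 fibroblasts came next, with 669 CPM in CIA and 796 CPM in control. The other fibroblasts (564 and 540 CPM) and Clic5-negative lining cells (625 and 561 CPM) followed, and the control levels of this pair overlapped. Aqp3/Fam180a fibroblasts had 77.7 and 142 CPM, 1.83-fold lower in CIA (1.38 to 2.42), short of the rule.

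Sfrp2, which acts on Wnt signalling in connective tissue, had the same gates first and second as Sfrp4, and stood near the endothelial level in Clic5-positive lining cells (4.35 CPM in CIA and 6.40 CPM in control). It had 217 CPM (208 to 226) in CIA and 206 CPM (196 to 217) in control Sectm1/Cbln1 fibroblasts, a ratio of 1.05 (0.986 to 1.13). In Egfl6/Mfap2 fibroblasts it had 113 CPM (106 to 121) and 188 CPM (181 to 196), 1.66-fold lower in CIA (1.54 to 1.79), which did not reach 2-fold. The gates therefore ranked apart in CIA, where Sectm1/Cbln1 fibroblasts were 1.92 times as high as Egfl6/Mfap2 fibroblasts (1.78 to 2.07), and closer in control, at 1.10 times (1.03 to 1.17). The largest clusters in the Egfl6/Mfap2 gate were 4 and 2 in CIA (296 and 241 of 834 cells). In control they were 2 and 5 (391 and 219 of 999 cells), and Sfrp2 was among the leading genes of cluster 5. The part of this make-up in the gate's differences was not tested. The other fibroblasts had 30.2 and 27.2 CPM and Clic5-negative lining cells 29.7 and 37.6 CPM. Endothelial cells had 3.27 and 5.90 CPM.

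Calls among the fibroblast gates were few. In Sectm1/Cbln1 fibroblasts 1 of 5 measured antagonists was called, Wif1, where the rule called 1.34% of 8138 genes (0.16% higher, 1.18% lower). In Egfl6/Mfap2 fibroblasts 0 of 5 were called, where the rule called 1.06% of 8795 genes (0.125% higher, 0.932% lower), and at 2-fold alone the count was again 0. In the other fibroblasts 1 of 5 was called, Wif1 again, against 1.0% of 8776 genes (0.171% higher, 0.832% lower). In Aqp3/Fam180a fibroblasts, a small gate of 90 CIA and 54 control cells, 1 of 2 was called, Dkk3, against 1.91% of 2778 genes (0.576% higher, 1.33% lower). The antagonists too rare to be measured in the Aqp3/Fam180a gate were Frzb at 4.48 and 18.4 CPM, Sfrp2 at 5.98 and 6.58 CPM, Wif1 at 5 and 31 UMIs, and Sfrp5 at 0 UMIs in both libraries. The median log2 ratios of the measured antagonists in these gates were 0.09, -0.40, -0.08 and -1.20 in that order, and those of all measured genes lay between 0.05 and 0.08.

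Dkk3 had its highest CIA level in Sectm1/Cbln1 fibroblasts, at 149 CPM (142 to 157) in CIA and 140 CPM (131 to 149) in control. It had its highest control level in Egfl6/Mfap2 fibroblasts, at 128 CPM in CIA and 176 CPM in control, 1.37-fold lower in CIA (1.28 to 1.48). Aqp3/Fam180a fibroblasts had 52.3 CPM (40.8 to 66.1) and 151 CPM (125 to 182), 2.89-fold lower (2.13 to 3.95), from 70 UMIs in CIA and 115 in control. That call was lost with all gate limits halved, at a log2 ratio of -0.87. With all limits doubled the ratio was larger, at -1.99 (-3.11 to -0.98), and the call was lost through the minimum of 100 UMIs. The other fibroblasts had 99.9 and 114 CPM of Dkk3, a ratio of 0.873 (0.802 to 0.95). Control endothelial cells had 38.4 CPM, and macrophages with monocytes 5.32 CPM in CIA and 7.64 CPM in control.

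**Figure D4:**
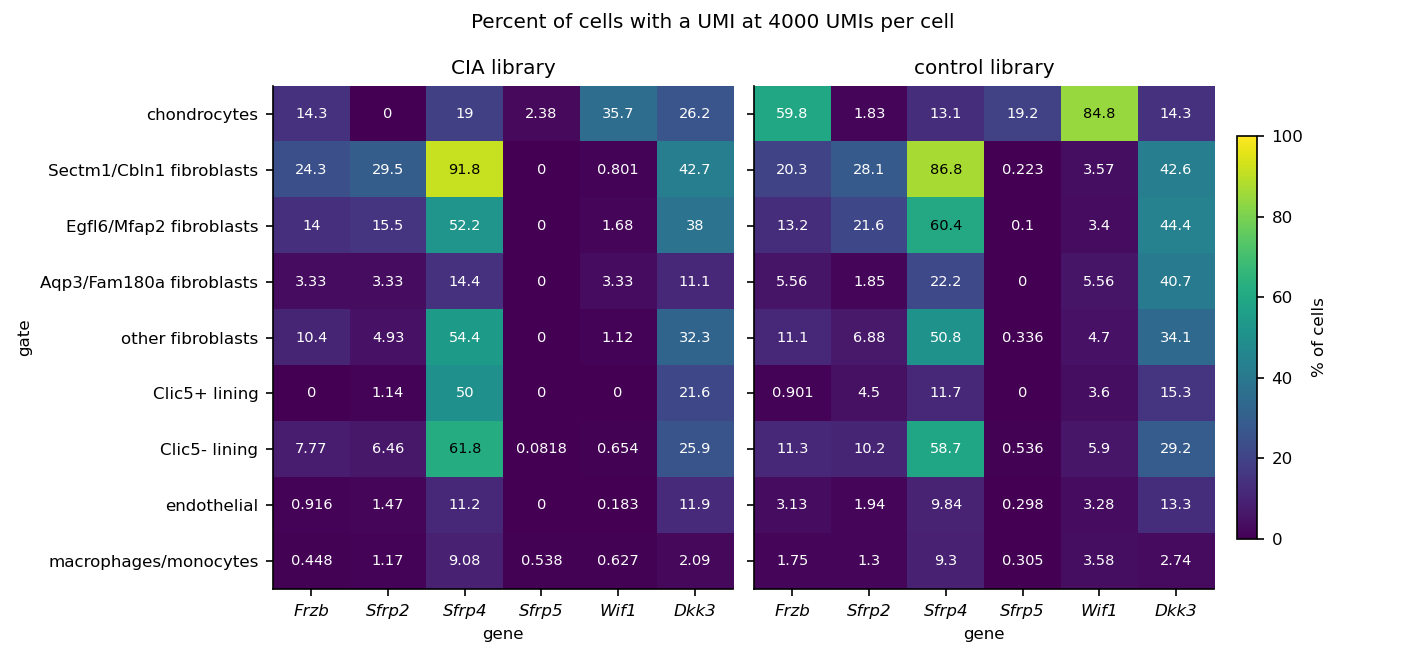
Percent of cells with at least 1 UMI of each gene after every cell was thinned to 4000 UMIs, by gate, with the CIA library on the left and the control library on the right. Sfrp4 was found in 91.8% and 86.8% of Sectm1/Cbln1 fibroblasts, and Wif1 in 35.7% and 84.8% of chondrocytes.

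Lining cells, marked by Prg4, were divided by Clic5. In Clic5-negative lining cells (1223 CIA and 373 control cells) Sfrp4 had 625 and 561 CPM, Dkk3 79.6 and 99.1 CPM, Frzb 28.5 and 35.4 CPM and Sfrp2 29.7 and 37.6 CPM. Of 5 measured antagonists 1 was called, the lower Wif1 given above, and Sfrp5, at 1 UMI in CIA and 4 in control, was not measured. Over all genes the rule called 2.37% of 8948 genes (1.11% higher, 1.26% lower). In Clic5-positive lining cells (88 CIA and 111 control cells) Sfrp4 had 371 CPM (340 to 405) and 70.4 CPM (57.2 to 85.8), 5.27-fold higher in CIA (4.24 to 6.60). It was 1 of 2 measured antagonists called there, where the rule called 8.52% of 3476 genes (3.97% higher, 4.55% lower). Dkk3 had 71.1 and 55.5 CPM there, a ratio of 1.28 (0.941 to 1.75), Wif1 0 UMIs in CIA and 18 in control, and Sfrp5 0 in both. This gate lay mostly in cluster 13 in CIA (75 of 88 cells) and in cluster 21 in control (104 of 111 cells), and its median share of UMIs on fibroblast markers was 4.96% in CIA and 1.28% in control. The part of this difference in make-up was not tested. With clusters in place of gates the log2 ratio was 0.93 (0.34 to 1.47) and the call was lost.

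The gates held different numbers of cells in the libraries, and each gene's UMIs were spread over them differently. Chondrocytes held 1.87% of all Frzb UMIs in CIA and 63.9% in control, and for Wif1 34.7% and 78.7%. Sectm1/Cbln1 fibroblasts held 38.2% and 9.07% of Frzb, 51.5% and 30.0% of Sfrp2 and 39.5% and 33.1% of Sfrp4. Of the Sfrp5 UMIs, chondrocytes held 1.79% and 76.1%, and macrophages with monocytes 96.4% and 8.94%. These shares mix the number of cells captured with the level per cell.

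**Figure D5:**
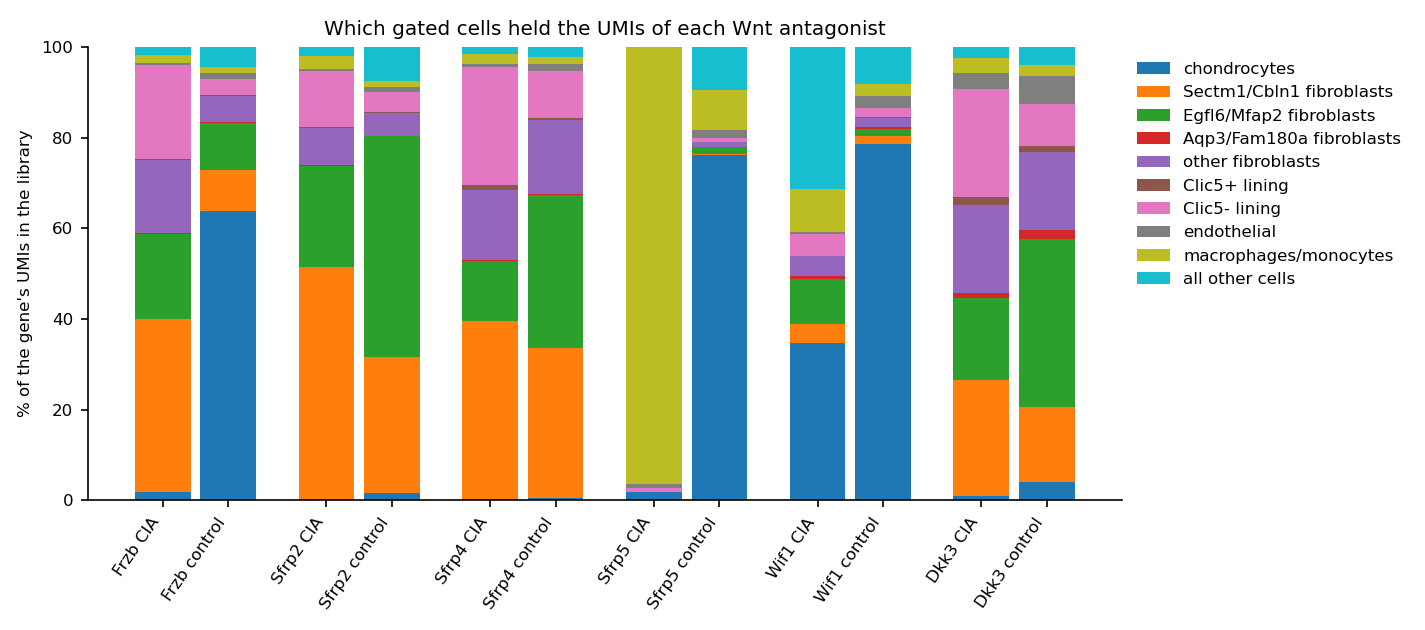
Share of each gene's UMIs by gate, in percent of that gene's UMIs over all kept cells of the library, with the CIA bar left of the control bar. Chondrocytes held most Frzb, Sfrp5 and Wif1 UMIs in control, and 1.87%, 1.79% and 34.7% of them in CIA.

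Single cells often held more than 1 antagonist. At 4000 UMIs per cell, 28.6% of CIA and 68.3% of control chondrocytes held UMIs of at least 2 of the 6, and in Chad-high cells 60% of 10 and 76.0% of 262. In Sectm1/Cbln1 fibroblasts the shares were 65.0% and 62.9%, in Egfl6/Mfap2 fibroblasts 37.9% and 45.8%, and in endothelial cells 2.75% and 3.73%. Frzb and Wif1 were found together in 4.76% of CIA and 51.5% of control chondrocytes, close to the products of their shares, 5.10% and 50.6%. Sfrp2 and Sfrp4 were found together in 27.5% of CIA and 25.2% of control Sectm1/Cbln1 fibroblasts, near the products of 27.1% and 24.4%. Wif1 was found in 278 of 328 control chondrocytes, and Sfrp4 in 802 of 874 CIA and 389 of 448 control Sectm1/Cbln1 fibroblasts. Shares found together there have little room to depart from the product, so their closeness says little about the pairs. In Egfl6/Mfap2 fibroblasts Sfrp2 and Sfrp4 were found together in 10.7% of CIA and 16.4% of control cells, above the products of 8.07% and 13.1%.

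Across the 21 sums of gate and library with at least 50 cells, the genes most like each antagonist were ranked by Pearson's r of log2(CPM + 1) among 10100 genes, as a description. The sums share libraries and their free RNA. CIA chondrocytes, at 42 cells, fell below this limit, so the control library gave the only chondrocyte sum. How far the r values of Wif1, Sfrp5 and Frzb rest on that sum was not tested. Frzb was most like Fibin (r = 0.90), Chi3l1 and Rbp4, and Sfrp5 was most like LOC297568 (r = 0.89), Smpd3 and Mia. Wif1 was most like Meltf (r = 0.92), Agt and Mia, so Mia, a small protein secreted by chondrocytes, stood among the top 3 of both Wif1 and Sfrp5. Among the genes most like Sfrp4 were C1s (r = 0.97), a complement protease, and Mmp2 (r = 0.96), a gelatinase. Sfrp2 was most like Gas6 (r = 0.95), Ntrk2 and Fgf7, and Dkk3 most like Tceal9 (r = 0.97), Fkbp7 and Mxra8. Among the antagonists themselves Sfrp2 with Sfrp4 (r = 0.85), Sfrp4 with Dkk3 (r = 0.80) and Sfrp5 with Wif1 (r = 0.75) were most alike, and Sfrp4 with Sfrp5 least (r = -0.36). Frzb was closer to Sfrp2 (r = 0.73) than to Wif1 (r = 0.65) or Sfrp5 (r = 0.51).

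Of the rest of the pathway, 59 of 76 listed genes were found in both libraries. Measured were 8 in chondrocytes, 29 in Sectm1/Cbln1, 29 in Egfl6/Mfap2, 4 in Aqp3/Fam180a and 29 in other fibroblasts, 10 in Clic5-positive and 28 in Clic5-negative lining cells. Ligands were scarce: the measured ones were Wnt4, Wnt5a and Wnt5b, at 3.82 to 26.0 CPM in the gates where they were measured, and 0 were called in any gate. With at most 3 measured per gate, and 1.0% to 11.4% of all genes called in these gates, a count of 0 is near the background. In chondrocytes Wnt5b, a ligand that mostly acts without beta-catenin, had 24.4 CPM in CIA and 26.0 CPM in control, a ratio of 0.939 (0.469 to 1.72).

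Of the receptors, 1 of 3 measured in Clic5-positive lining cells was called, where 8.52% of all measured genes were. It was Fzd1, a Frizzled receptor, which had 150 and 32.7 CPM there, 4.59-fold higher in CIA (3.32 to 6.46), and Kremen1, a co-receptor for Dickkopf proteins, had 109 and 29.9 CPM, 3.64-fold higher (2.57 to 5.25). Rspo2, an R-spondin that strengthens Wnt signalling, had 10.2 and 104 CPM there, 10.2-fold lower (5.91 to 19.2), and 3.63 and 8.76 CPM in Clic5-negative lining cells, 2.41-fold lower (1.63 to 3.54). These share the change of cluster noted above for the Clic5-positive gate. The 10 receptors and co-receptors measured in Sectm1/Cbln1 fibroblasts, the 10 in Egfl6/Mfap2 fibroblasts and the 9 in the other fibroblasts were all short of the rule, which called 1.34%, 1.06% and 1.0% of all genes in these gates, so a count of 0 is near the background.

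Among intracellular parts and targets, Myc, a target of beta-catenin and of many other signals, was called lower in CIA in 3 gates. It had 28.2 and 67.0 CPM in Egfl6/Mfap2 fibroblasts (2.37-fold lower, 2.05 to 2.75), 27.4 and 61.6 CPM in Clic5-negative lining cells (2.25-fold lower, 1.96 to 2.59) and 39.9 and 86.8 CPM in Clic5-positive lining cells (2.18-fold lower, 1.57 to 3.05). Of measured pathway genes, the rule called 1 of 29 lower, 2 of 28 lower, and of 10, 3 higher and 2 lower, in that order. Over all genes it called 1.06%, 2.37% and 8.52% there. Ccnd1, a cyclin and another such target, was called in chondrocytes, with 248 and 88.6 CPM, 2.81-fold higher (2.26 to 3.47). It was 1 of 8 measured pathway genes, near the 11.4% of all measured genes called in that gate. The part of the gate's change in Chad-high cells in this difference was not tested. Apc, part of the complex that breaks down beta-catenin, had 87.0 and 42.0 CPM in Clic5-positive lining cells, 2.07-fold higher (1.51 to 2.88). In Sectm1/Cbln1 and in other fibroblasts 0 of 29 measured pathway genes were called, near the background of 1.34% and 1.0%.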

How the data were processed

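Cartilage cells of 2 rat libraries, 1 CIA and 1 control, had been made with a 3' single-cell kit, per the labels' protocols, but the deposited cell barcodes are longer than that kit's, so the platform is uncertain. The authors deposited UMI counts for each gene in each cell, not normalized. The genome build was mRatBN7.2, per the submitters' processing notes; aligner, counter and cell calling are not stated there or in the labels. The matrices held 105752977 UMIs in 8622 CIA barcodes and 76927821 in 5456 control barcodes. Kept were cells with 200 or more genes and 20% or less of mitochondrial UMIs, and Scrublet doublets (166 CIA, 1.94%; 62 control, 1.15%) were removed.

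Gates took leukocytes, osteoclasts, erythroid, endothelial, mural and other cells first, then chondrocytes (Col2a1, and the sum of the other chondrocyte markers, each at least 1000 CPM), lining cells (Prg4 at least 10000 CPM, divided at 200 CPM of Clic5) and fibroblasts (10 markers at least 30000 CPM), divided by Sectm1a, Sectm1b and Cbln1, by Egfl6 and Mfap2, or by Aqp3 and Fam180a at 300 CPM. Limits were set after values were seen; 349 of 1223 CIA and 132 of 373 control Clic5-negative lining cells lay within 1.5 times the Prg4 limit. Genes and lists were chosen with earlier results of these data known. Raw counts were summed per gate and library. Named were every antagonist in every gate, each pathway gene past the size rule, and the 3 genes most like each antagonist, of which 1 is not reported here. The size rule was tested on simulated data. Ratios carry exact conditional intervals, shares Clopper-Pearson intervals, and a floor is 3 counts. Python 3.11.15, scanpy 1.11.5, scipy 1.17.1, and edgeR 4.0.16 for TMM factors (R 4.3.3) were used. Alternatives were other gate limits, Leiden clusters, scaling, weighting, filters and single cells left out.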

Additional observations from a re-analysis of the deposited data

How the results depend on the processing

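In chondrocytes Frzb stayed lower in CIA in all settings tried, with log2 ratios of -4.61 to -2.82. So did Wif1 (-2.29 to -1.18) and Sfrp5 (-4.78 to -3.72). Without its top cell Sfrp5 had no CIA UMIs left and no value. None of these settings split the gate by Chad level. In Chad-high cells alone the log2 ratio of Wif1 was -0.17 (ratio 0.891, 0.764 to 1.03), with no call, and that of Frzb was -3.78. The higher Sfrp4 in chondrocytes turned to a log2 ratio of -0.13 with Leiden clusters in place of gates and to -0.28 without the top cell, which held 70 of the 85 CIA UMIs; the cause of the cluster value was not tested. Counts of called antagonists moved as follows. In Aqp3/Fam180a fibroblasts the 1 call became 0 with limits halved or doubled, and 2 with equal weight per cell, with no minimum of UMIs, or without cells in cycle (this last setting was chosen after seeing the data); no cluster took that name. In Sectm1/Cbln1 fibroblasts it became 0 with limits doubled or with clusters. With clusters it became 1 in Egfl6/Mfap2 fibroblasts, 2 in other fibroblasts, and 0 in each lining gate. In Clic5-positive lining cells it became 2 with no minimum of UMIs. Calls in the pathway list numbered 9, and became 5 with limits doubled and 17 with no minimum of UMIs. The gate with the highest level was the same in at least 10 of 12 pairs of gene and library in every setting. No paired analysis was possible because each group has 1 library and no result comes from a test. Depth limits Sfrp5, and Frzb in the 10 CIA Chad-high cells, where 1 UMI counts for much.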

Other observations

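Sfrp5 was also found outside the stromal cells. Macrophages and monocytes held 108 Sfrp5 UMIs in 44 of 3347 CIA cells (1.31%, exact interval 0.957 to 1.76) and 37 UMIs in 21 of 1312 control cells (1.60%, 0.993 to 2.44), which gives 2.89 and 2.02 CPM. Single cells held up to 10 UMIs in CIA and up to 5 in control, and 25 CIA and 9 control cells held at least 2. Endothelial cells of the same libraries had 0.156 and 0.700 CPM, from 1 and 7 UMIs. Of the cells with Sfrp5, 0 in CIA and 1 in control were past the Col2a1 limit of the chondrocyte gate. In clusters 6, 8 and 10 of these cells Sfrp5 had 47, 31 and 19 UMIs in CIA and 6, 7 and 10 in control, in cluster 11 it had 1 in CIA and 13 in control, and in clusters 7 and 19 it had 0 in both. The group was noticed after its values were seen.

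Cells that passed no gate, 205 in CIA and 252 in control, held 26.7% and 4.88% of all Wif1 UMIs. Their Wif1 level was 55.5 CPM (47.4 to 64.6) in CIA and 99.3 CPM (89.4 to 110) in control, with at most 20 and 42 UMIs in a cell, beside 274 and 735 UMIs of Col2a1 over all of them.

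In control Aqp3/Fam180a fibroblasts 22 of 31 Wif1 UMIs lay in 1 cell, which held 101 UMIs of Chad and 0 of Col2a1.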
